A study of Arabidopsis thaliana with 16 samples.

Results

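AGL54, AGL26 and AT1G44830 are 3 Arabidopsis thaliana genes named as transcription factors, each read by 1 array feature that the platform annotation pairs with that gene alone. They are 3 of the 692 features with a single annotated gene, among 3439 features in all. They were picked with their blue and white light intensities already known, so the differences between the light groups are given for them as a description and without a test. AGL54 is AT5G27090, read by feature 4607, AGL26 is AT5G26880, read by feature 4105, and AT1G44830 is read by feature 1333. The samples were total RNA of wild-type plants of the ecotype Landsberg held for 48 hours at 20 µE in blue light (8 array columns) or in white light (8 array columns). The labels do not name the organ or the plant age, and they do not say how the replicates arose. None of the 40 marker genes listed for leaf, root, pollen, seed and flower had a feature of its own, so the tissue could not be checked.

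MADS-box proteins are transcription factors that bind DNA through a conserved domain at the start of the protein. The classical members set floral organ identity and flowering time, while type I members, AGL54 among them, are known mainly from the female gametophyte, the embryo and the endosperm. AGL26 carries an AGAMOUS-like name, after the founding floral MADS-box gene. It is counted with the MADS-box genes below by that name alone. Whether its protein holds the domain or is a transcription factor was not checked here. Proteins of the ERF/DREB family, to which AT1G44830 belongs, carry a single AP2 DNA-binding domain and are known for gene regulation under drought, cold, wounding and ethylene. Plants read blue light through cryptochromes, phototropins and the ZEITLUPE family, which act in part by controlling the stability and activity of transcription factors.

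AGL54 and AGL26 lie on chromosome 5 with 21 protein-coding genes between them in the TAIR10.1 gene table, and none of those 21 genes had a feature of its own. AT1G44830 lies on chromosome 1.

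All 16 columns resembled most the column next to them in replicate number within their light group, so such neighbours were averaged into 1 sample. Sample 1 is the average of replicates 1 and 2, sample 2 of 3 and 4, sample 3 of 5 and 6, and sample 4 of 7 and 8, with n = 4 averaged samples in each light group. Total signal ran from 3067 to 3735 units per column in blue light and from 1044 to 3320 in white light. The lowest totals of both groups were those of replicates 7 and 8, at 3096 and 3067 in blue light and 1044 each in white light. Because total signal differed between the groups, intensities are given first as deposited and then on the log2 scale after quantile normalization, which brings every column to the same distribution. A change below is thus relative to the other features of the same arrays. The number of arrays limits the precision.

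In the deposited intensities all 3 genes were brighter on every blue light column than on any white light column, and after normalization the groups remained apart for AGL54 and AT1G44830 but not for AGL26. AGL54 was higher in blue light by 2.44 on the log2 scale (SE 0.40), a 5.44-fold difference, and AT1G44830 by 2.87 (SE 0.51), a 7.31-fold difference. AGL26 differed by 0.67 (SE 0.43) and its light groups overlapped. Of all 2864 features tested with limma, 32.4% passed an adjusted p of 0.05 in either direction, 15.9% as higher and 16.4% as lower in blue light. Deposited columns did not overlap, with blue light above white light, for 38.2% of these features, so a gap between deposited columns was common. After normalization the averaged samples were apart in this direction for 15.9%. These shares stand beside genes chosen on the same contrast, and nothing is read from the comparison.

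AGL54, the type I MADS-box gene, had deposited intensities of 0.774 at the lowest, 1.15 at the median and 1.52 at the highest among the 8 blue light columns. In white light the corresponding values were 0.0419, 0.0794 and 0.137. The lowest blue light column was 5.63 times the highest white light column, the widest separation among these 3 genes. After quantile normalization the blue light samples 1 to 4 were at -1.19, -0.24, -0.55 and 0.04, against -2.92, -2.31, -3.94 and -2.54 in white light. The lowest blue light sample was thus 1.12 above the highest white light sample. The means were -0.49 ± 0.53 in blue light and -2.93 ± 0.72 in white light (SD, n = 4 each). Within the same sample number, blue light was higher by 1.73, 2.07, 3.40 and 2.58, and the largest of these differences came from sample 3, where white light was lowest. The feature read alike on neighbouring columns, with an SD of 0.28 between neighbours and 0.63 between averaged samples of a light group. Its white light median was close to 0.0764, the 10th percentile of all values above 0. With values below 0.0764 raised to it the normalized difference was 2.26 (SE 0.32). With 0.0764 added as a pseudocount it was 1.81 (SE 0.28).

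AT1G44830, the ERF/DREB gene, had deposited intensities of 0.205, 1.31 and 1.63 (lowest, median and highest) in blue light. In white light they were 0.0117, 0.0394 and 0.108. The ratio of the medians was 33.3, but the lowest blue light column was only 1.90 times the highest white light column. The white light median was below 0.0764, the 10th percentile of all values above 0, so this ratio rests on very low readings. The normalized values of blue light samples 1 to 4 were -0.05, -0.59, -0.02 and -2.50, against -3.78, -3.48, -3.28 and -4.10 in white light. Sample 4 was the lowest of both light groups, and in blue light it stood well below the other samples. The means were -0.79 ± 1.17 in blue light and -3.66 ± 0.36 in white light (SD, n = 4 each), so the spread came mostly from blue light. Blue light was higher within each sample number, by 3.73, 2.89, 3.27 and 1.60. Without blue light sample 4 the difference was 3.44 (SE 0.31), and without replicates 7 and 8 of both groups it was 3.29 (SE 0.27). Neighbouring columns differed more for this gene, with an SD of 0.61 between neighbours against 0.87 between averaged samples. White light replicates 1 and 2, for example, read 0.0947 and 0.0336 as deposited. The mean level of AT1G44830 over both groups was at the 24.2 percentile of the tested features. With values below 0.0764 raised to it the normalized difference was 2.18 (SE 0.45). With 0.0764 added as a pseudocount it was 1.98 (SE 0.39).

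AGL26, the other AGAMOUS-like gene, had deposited intensities of 0.418, 0.997 and 1.44 (lowest, median and highest) in blue light. In white light they were 0.144, 0.243 and 0.331. The lowest blue light reading was replicate 4, at 0.418, while its neighbour replicate 3 read 0.994. After normalization the blue light samples 1 to 4 were at -0.88, -1.37, -0.85 and 0.20, against -1.88, -2.0, -1.24 and -0.47 in white light. White light sample 4 was above 3 of the 4 blue light samples, so the groups overlapped. The means were -0.73 ± 0.66 in blue light and -1.40 ± 0.70 in white light (SD, n = 4 each), and the difference of 0.67 was about as large as the SD of either group. Within the same number, blue light was nevertheless higher in 4 of 4 samples, by 1.0, 0.63, 0.39 and 0.66. With the sample number as a replicate block the difference stayed at 0.67 and its SE became 0.22. Without blue light sample 4 the difference was 0.36 (SE 0.40), and without white light sample 4 it was 0.98 (SE 0.39).

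**Figure D1:**
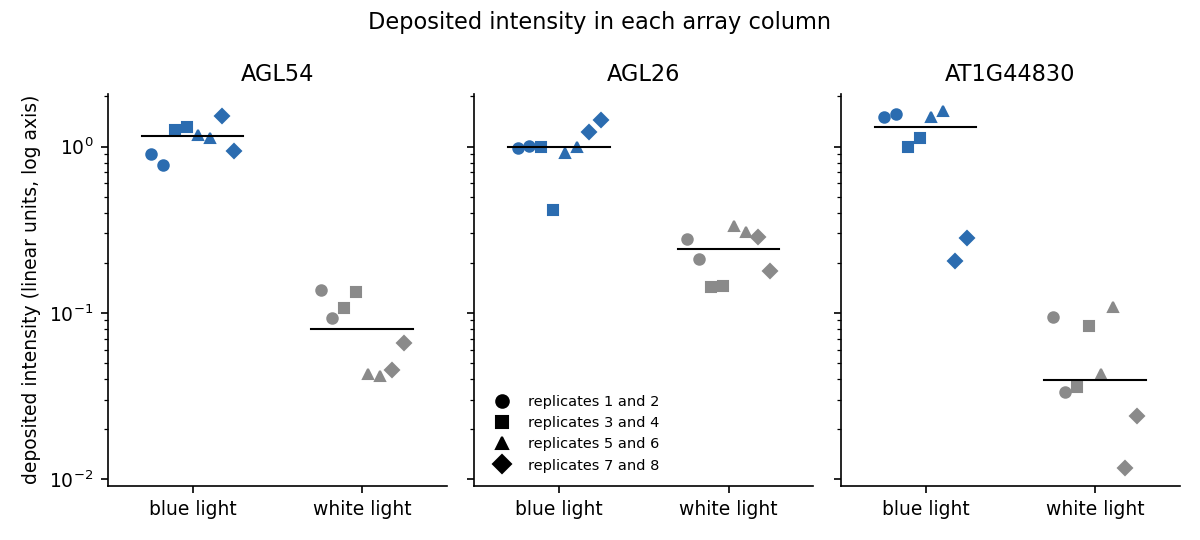
Deposited intensity of AGL54, AGL26 and AT1G44830 in each of the 8 blue light and 8 white light columns (linear units on a log axis), with marker shapes for the neighbouring replicates that were averaged and a bar at each group's median. Blue light columns lie above all white light columns for each gene, and replicates 7 and 8 of AT1G44830 are the lowest of their group in both lights.

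**Figure D2:**
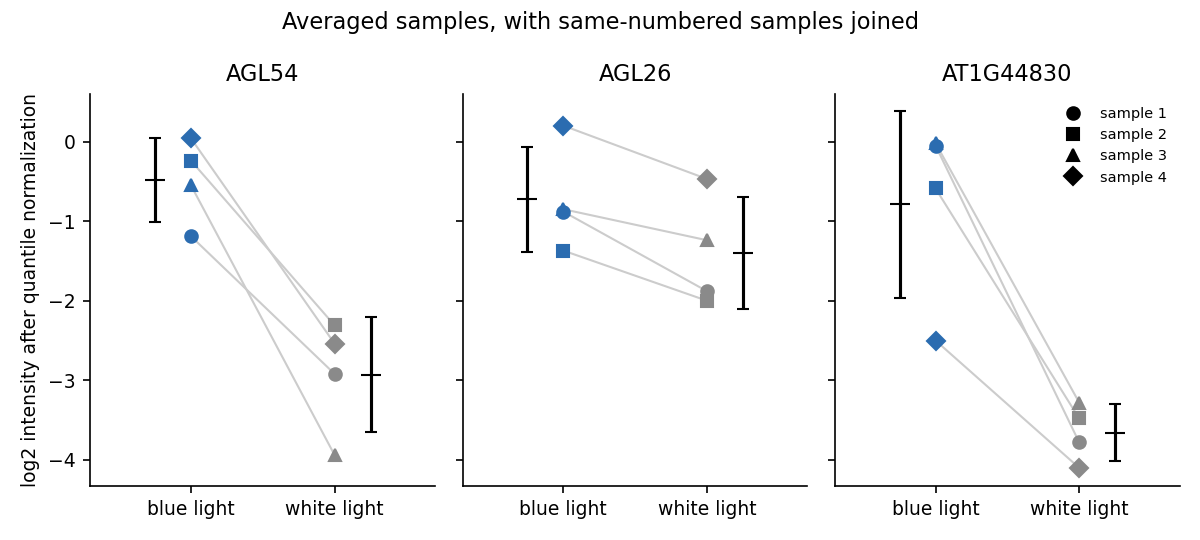
The same genes as log2 intensity after quantile normalization in the 4 averaged samples of each light group, with grey lines joining samples of the same number and bars giving the mean and SD. AGL54 and AT1G44830 are apart between the groups, whereas AGL26 overlaps although each line runs lower in white light.

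The 3 genes did not vary alike within a light group. Sample 4 of blue light was the highest of its group for AGL54 (0.04) and AGL26 (0.20) and the lowest for AT1G44830 (-2.50). In white light, sample 4 was again the highest for AGL26 (-0.47) and the lowest for AT1G44830 (-4.10), while AGL54 was highest in sample 2 (-2.31). Sample 4 holds the columns of lowest total signal in both groups, and the part of total signal in these values was not tested. Sample 3 of white light held the lowest AGL54 value (-3.94) and the highest AT1G44830 value of that group (-3.28).

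The difference of each gene depended on how the columns were scaled, and relative to its own size that of AGL26 changed most between quantile normalization and the deposited scale. As deposited, the log2 difference was 3.88 (SE 0.42) for AGL54, 2.09 (SE 0.38) for AGL26 and 4.35 (SE 0.67) for AT1G44830. The median of all tested features was itself 1.37 higher in blue light on the deposited scale. Relative to that median the differences were 2.52 for AGL54, 0.72 for AGL26 and 2.99 for AT1G44830, near the values after quantile normalization. The difference of the median feature was thus most of the deposited difference of AGL26. With median centring the differences were 2.40, 0.60 and 2.87 for AGL54, AGL26 and AT1G44830, and with cyclic loess they were 2.29, 0.63 and 2.79. No setting tried turned the sign of any of them.

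**Figure D3:**
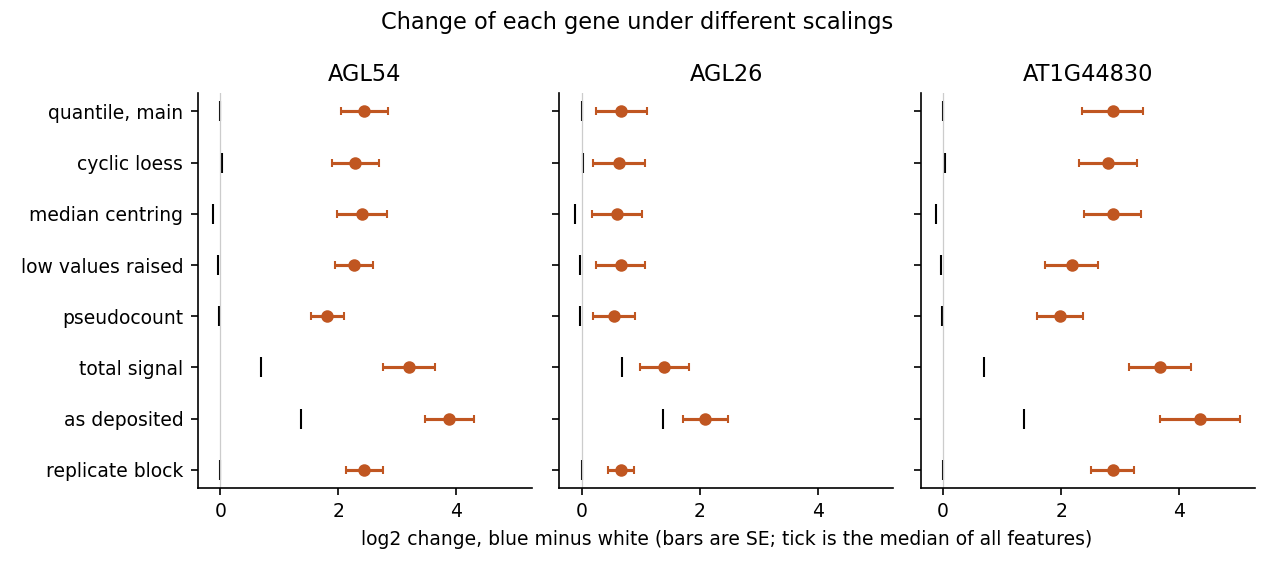
Log2 difference between blue and white light (blue minus white, bars are SE) of each gene under 8 settings, with a black tick at the median of all tested features. All 3 differences are larger where the tick is higher, with total signal and as deposited. With the pseudocount the tick is at -0.02, yet AGL54 (1.81) and AT1G44830 (1.98) are lower than in the main setting. AGL26 lies closest to the tick, at 0.67 with quantile normalization and 2.09 as deposited.

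The platform annotation also lists AGL54 and AGL26 on 1 further feature each, together with other genes, and those features cannot be assigned to any single gene. The feature that lists AGL54 among 3 genes (feature 3627) had deposited intensities of 0.0742, 0.142 and 0.192 (lowest, median and highest) in blue light and 0.105, 0.155 and 0.281 in white light. Its normalized values in blue light samples 1 to 4 were -3.51, -3.45, -4.64 and -3.45, against -1.84, -2.21, -1.92 and -1.27 in white light. The difference was -1.95 on the normalized log2 scale (SE 0.35), lower in blue light in 4 of 4 sample numbers and opposite in direction to the AGL54 feature. It is given without a test, since the feature was singled out after its values were seen. As deposited the difference was -0.34 (SE 0.41). The feature that lists AGL26 among 4 genes (feature 3422) had entries of 0 throughout blue light (8 of 8 columns) and in 5 of 8 white light columns, and it was not tested. Which of the listed genes these features read was not tested.

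Other genes of transcription factor lists give the setting for these values, although few were matched to a feature of their own. Lists of 11 families held 938 genes (a gene in more than 1 list counted each time). Of these lists 7 matched no single-gene feature, those of the AP2/ERF, MYB, WRKY, NAC, bHLH, bZIP and zinc finger families. The lists were matched on gene names, and the AP2/ERF list does not hold AT1G44830, which the gene table gives by its locus only. Many single-gene features are of genes given by locus only, and the families of these genes were not looked up. Other family members among them could be missed in the same way. A list without a match thus does not mean that no gene of that family was measured alone. None of the 6 genes listed as close ERF relatives of AT1G44830 had a single-gene feature. Neither did any of the 30 genes listed for blue light signalling. Beside AGL54 and AGL26, 5 genes of these lists were tested. Of these 5, none rose, 1 fell and 4 did not pass, whereas without normalization and scaled to total signal those same 4 passed as higher. Over all tested features 32.4% passed in either direction. The median change of these 5 genes was 0.54, beside 0.00 over all tested features. The counts and the median cover only genes matched by name and do not describe whole families.

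IAA31, which belongs to the Aux/IAA repressors of auxin response, was the member that fell. Its normalized values were -0.74, -1.15, -1.24 and -1.25 in blue light samples 1 to 4, against 0.58, 1.15, 0.65 and 0.13 in white light, with no overlap. It fell by 1.72 (SE 0.29, limma adjusted p = 0.00196), lower in 4 of 4 sample numbers. As deposited IAA31 was at -0.66 and did not pass (adjusted p = 0.315).

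AGL103, the third gene of the MADS-box list with a feature of its own, was at -0.35, -0.74, -0.34 and -1.26 in blue light and at -0.62, -1.03, -1.10 and -3.17 in white light. White light sample 4 lay far below the rest, and the groups overlapped. The difference was 0.81 (SE 0.51, limma adjusted p = 0.252), and without white light sample 4 it was 0.25 (SE 0.31). In the direction of its sample 4, AGL103 resembled AT1G44830 and not AGL26, which was highest there.

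TCP15, a TCP factor known from the control of cell proliferation in leaves and flowers, was at -0.13, 0.14, -0.88 and -0.27 in blue light and at -0.99, -1.20, -1.39 and -0.86 in white light. Its difference of 0.83 (SE 0.29) missed the threshold at a limma adjusted p of 0.0511, and with the replicate block it passed at an adjusted p of 0.0289. It passed under 11 of 26 alternatives, with adjusted p from 0.000927 to 0.145. LAS, a GRAS protein needed for axillary meristems, differed by 0.09 (SE 0.24, adjusted p = 0.805). AT4G03090, a homeobox gene, differed by 0.54 (SE 0.41, adjusted p = 0.348). Both had overlapping groups.

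A pair of regulators of reproductive development was looked up by name after the values had been seen and is given without a test. SPL, also called SPOROCYTELESS and known to act downstream of the MADS-box protein AGAMOUS in sporocyte formation, differed by -0.04 (SE 0.31). SAP, which stands for STERILE APETALA, had entries of 0 throughout blue light (8 of 8 columns) and in 6 of 8 white light columns.

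**Figure D4:**
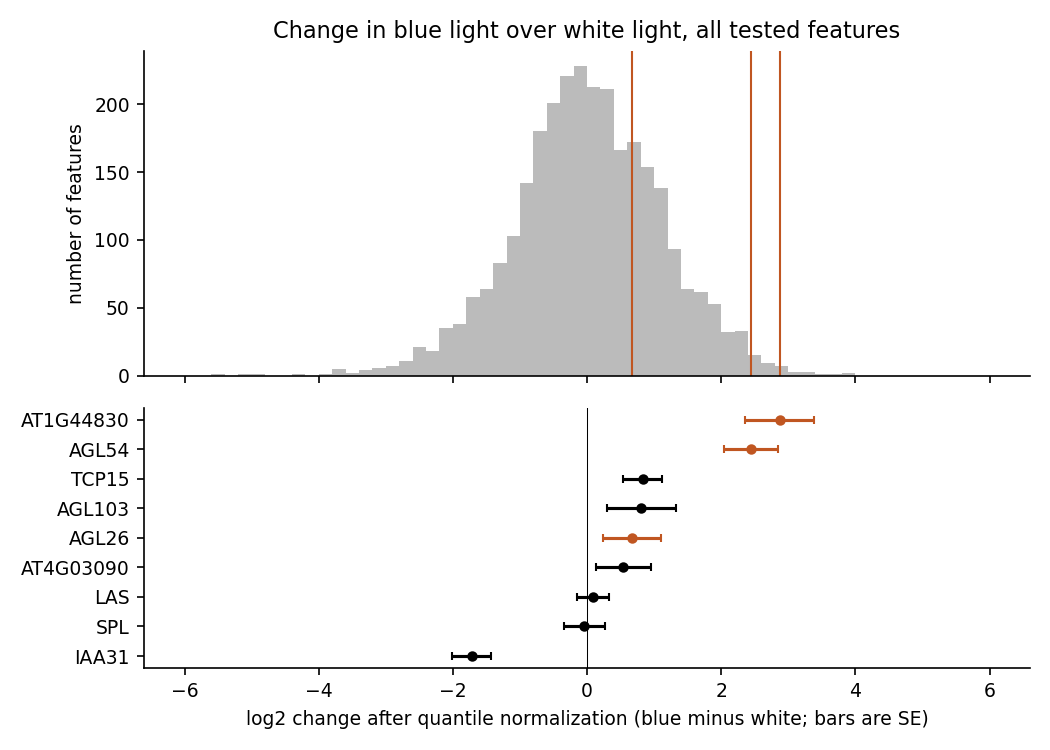
Top, the number of tested features by log2 change in blue light over white light after quantile normalization, with lines at AGL26 (0.67), AGL54 (2.44) and AT1G44830 (2.87). Bottom, the change and SE of these genes in orange and of 6 other named genes in black, where IAA31 at -1.72 is the furthest below 0.

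In order of size, AT1G44830 had the fourth largest positive difference among the 576 tested single-gene features, AGL54 the ninth, and AGL26 was at rank 165. These ranks describe how the genes were chosen.

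For each gene, the 4 single-gene features with the most similar values over the 8 averaged samples were sought among 554 candidates by Pearson correlation. All features share the same arrays and a difference between the light groups raises such correlations. The closest to AGL54 were AT4G16490 (r = 0.98), AT2G41950 (0.98), AT2G20920 (0.94) and AT4G39570 (0.93). The closest to AGL26 were AT4G13550 (r = 0.96), AT3G54930 (0.95), AT1G78790 (0.95) and AT1G79080 (0.94). The closest to AT1G44830 were AT4G24750 (r = 0.98), AT1G08845 (0.97), AT4G29890 (0.96) and AT4G08630 (0.95). No gene was among the first 4 of more than 1 of them.

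When the correlation was taken over deviations from the light group means, which leaves out the difference between the groups, other genes came first. For AGL54 these were AT5G42680, AT4G30680, AT4G37420 and AT3G04560, with r from 0.89 to 0.97. For AGL26 they were AT4G19900, SIRB, AT4G14380 and AT2G28790, with r from 0.95 to 0.97, and for AT1G44830 they were UGT74D1, AT1G32220, AT1G73090 and CSLA01, with r from 0.92 to 0.95. None of the first 4 genes of any of the 3 was kept. Over deviations, the genes found first had r from 0.93 to 0.95 with AGL26, 0.84 to 0.91 with AT1G44830 and 0.58 to 0.87 with AGL54. These genes were picked on the same samples. The first correlation also holds the light group difference, which was smallest for AGL26, so nothing is read from these ranges.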

How the data were processed

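The deposited values were linear intensities of 3439 features in 16 columns. Neither the labels nor the file header says how the authors made these intensities (image processing, background correction, scaling) or what the scale refers to. Entries of 0 made up 11.7% to 16.7% of each column.

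Gene names came from the platform annotation, which may be outdated, and from the TAIR10.1 gene table. The annotation gave a single gene for 692 features (690 of them in the gene table), several for 870 and none for 1877. No sequence and no coordinate is given.

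Entries of 0 were treated as missing, and 2864 features above 0 in at least 6 of 8 columns of each group were tested. Log2 values were quantile normalized over these features and columns with neighbouring replicate numbers were averaged. The light groups were compared in R 4.3.3 by limma 3.58.1, using lmFit and eBayes with two-sided p-values, Benjamini-Hochberg adjusted over all tested features, at a threshold of 0.05. The fit was checked on simulated data. These were independent normal values, without entries of 0, normalization or deviations shared between samples, so the check does not cover these traits of the arrays. Nothing states that replicates came from separate plants, so p-values measure the spread between averaged samples, which may be technical.

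Same-numbered samples of the light groups deviated together (correlations across features of 0.39, 0.46, 0.19 and 0.35, all above the limit of 0.1), which meets the rule for pairing. The main fit nevertheless had no block and does not use the pairing. The replicate block was an alternative.

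The genes, the lists and the averaging were chosen with earlier results of these data known. Named were the 3 genes, up to 3 passing members per direction of each gene list, all tested members of short lists, and the 4 genes most like each of the 3 by correlation. A feature annotated with several genes, SPL and SAP fall outside this rule and were chosen after their values were seen. Alternatives covered scaling, low values, filters, averaging, the block, the threshold, other variance models and tests, and leaving out each sample. Protein similarity was not used here.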

Additional observations from a re-analysis of the deposited data

Results flagged for a closer look

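The values of the 3 genes, the 5 tested genes of the lists, SPL and feature 3627 were screened in each light group. The screen sought a sample lying apart from its group, and 1 of 20 groups held one, where chance flags about 5%. SAP and the genes named by correlation were not screened. Feature 3627, which the annotation pairs with AGL54 and other genes together, was at -4.64 in blue light sample 3, with the other blue light samples between -3.51 and -3.45. Without that sample the difference of the feature was -1.66 (SE 0.29).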

How the results depend on the processing

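The counts of 456 higher and 471 lower features in blue light stayed within 1.5 times under 21 of 26 alternatives, and were 596 and 599 with the replicate block. They were 1530 and 44 without normalization (97.2% higher, against 49.2%), 1102 and 209 scaled to total signal (84.1% higher), 734 and 749 with 16 separate columns, 850 and 849 with these and the replicate block, and 209 and 249 at a threshold of 0.01. The difference of AGL54 was 3.88 without normalization, 3.20 scaled to total signal and 1.81 with the pseudocount of 0.0764. That of AGL26 was 2.09 without normalization and 1.40 scaled to total signal. That of AT1G44830 was 4.35 without normalization and 1.98 with the pseudocount. Under the other alternatives these differences moved by less than the SD between samples. LAS was at -0.01 with median centring and also with odd replicate numbers only. SPL was at 1.25 without normalization and 0.56 scaled to total signal, and between -0.24 and 0.10 with 1 sample left out. Of the 5 listed genes given a call, the replicate block on the averaged samples changed that of TCP15 alone. AGL54, AGL26 and AT1G44830 were given no call, and with this block the SE of AGL26 was 0.22, against 0.43. IAA31 did not pass without normalization, where AGL103 (2.12), AT4G03090 (2.15), LAS (1.47) and TCP15 (2.11) passed as higher. Quantile normalization over all features, and odd or even replicate numbers alone, were tried after the data were seen. The cause of these shifts was not tested.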
